A study of Rattus norvegicus with 18 samples.

Results

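The genes described here encode the chains of cartilage collagens II, IX and XI: Col2a1, Col9a1, Col9a2, Col9a3, Col11a1 and Col11a2. They were found by symbol and are 6 of the 18923 genes, and 7 of the 24143 transcripts, in the deposited tables. RNA was measured in nucleus pulposus, the soft and watery centre of the disc between vertebrae, from rats at 2, 10 and 20 months of age. Each age had 3 input libraries, made from fragmented poly(A) RNA without antibody, and these 9 are used below. A further 9 libraries, pulled down with an antibody against N6-methyladenosine, were not analysed here. The labels name no strain, sex or treatment, and name neither the animals behind the replicates nor how many discs each holds, so p-values measure only the spread between libraries.

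Fibrillar collagens form the ropes of cartilage-type tissue. Type II collagen is a homotrimer of Col2a1 chains, and type XI molecules, built from the Col11a1 and Col11a2 chains and a further chain made from Col2a1, lie inside the same fibril and limit its width. Type IX collagen, a heterotrimer of the Col9a1, Col9a2 and Col9a3 chains, sits on the fibril surface and links it to its surroundings. In the nucleus pulposus these fibrils hold the proteoglycan aggrecan, which binds water and lets the disc carry load.

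Of the 6 genes, only Col2a1 was abundant, and Col11a1 followed at a moderate level. Col11a2 and Col9a3 were low, and Col9a1 and Col9a2 were under 1 FPKM in all 9 libraries. FPKM counts fragments relative to transcript length and to the mapped fragments of the library, so levels of different genes can be set side by side. The highest levels of Col2a1, Col11a1, Col11a2 and Col9a1 all came from 2-month libraries, whereas the highest Col9a3 level came from a 20-month library. Col2a1 reached its lower level by 10 months, while Col11a1 fell at each step.

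**Figure D1:**
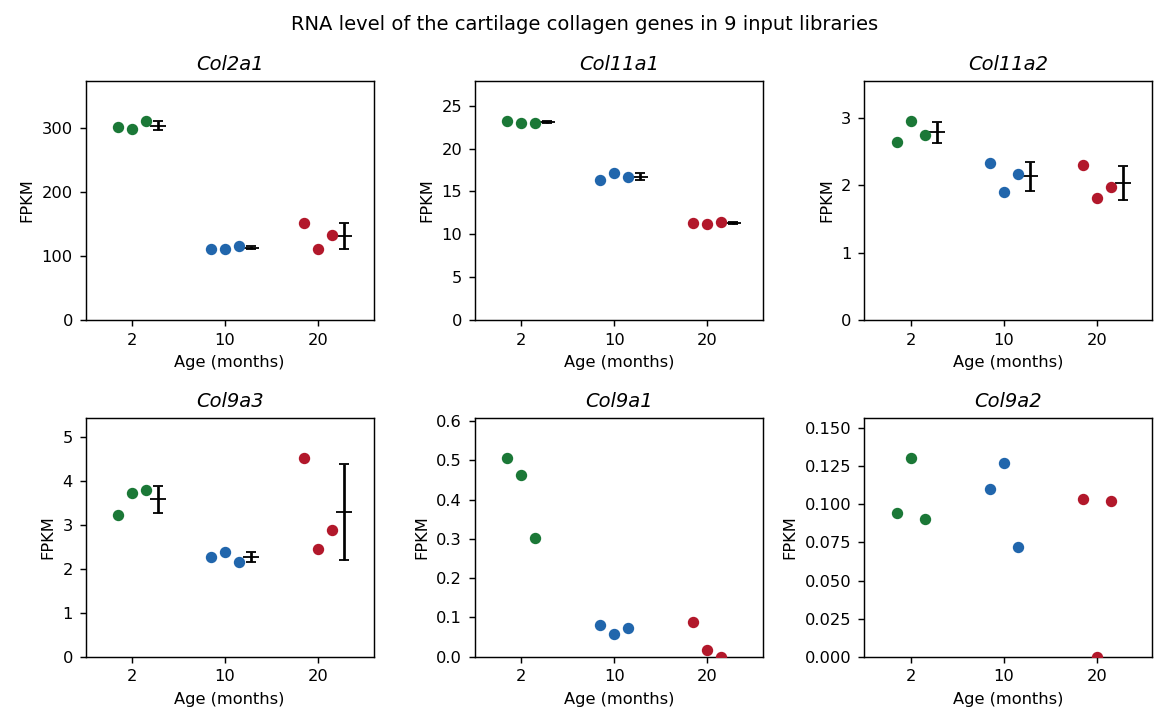
Level of each gene in FPKM (y axis, from 0, with its own scale per gene) by age in months (x axis); each point is 1 library, in the order of replicates 1 to 3, and black bars are mean ± SD (n = 3), left out for Col9a1 and Col9a2, which have libraries listed at 0. The 2-month Col2a1 points lie between 299 and 311 FPKM, apart from the 6 others, and the Col11a1 points form 3 separate tiers.

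Coordinates of the genes are those of the deposited tables, whose genome build no source used here gives. Col2a1 (ENSRNOG00000058560) spans chr7:139455242-139483997 on the minus strand, with 53 exons. Col11a1 (ENSRNOG00000023148) spans chr2:216863428-217056523 on the plus strand, with 67 exons. Col11a2 (ENSRNOG00000000463) spans chr20:3830164-3859018 on the plus strand, with 64 exons, and lies 1024 bases from Rxrb, the nearest gene, on the same strand. The type IX genes are Col9a1 (ENSRNOG00000012920, chr9:30419001-30502298), Col9a2 (ENSRNOG00000011502, chr5:139963002-139979864) and Col9a3 (ENSRNOG00000009531, chr3:176102351-176124306), all on the plus strand. None of the 6 overlaps another listed gene. Each has 1 listed transcript except Col11a2, which has 2, so splice forms such as those with and without exon 2 of Col2a1 are not resolved.

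Promoters of 4 of the 6 genes had an entry in RefSeq's table (build GRCr8, a different build from that of the gene coordinates above). Col2a1 and Col9a3 had no entry, so only these 4 are shown. Any link between these windows and the RNA levels was not tested. Each run below is the 250 bases before the transcription start, on the gene's own strand, 5′ to 3′. Capitals mark a GC box (GGGCGG, the binding motif of Sp1-type factors) or a CCAAT box (CCAAT), each searched on both strands.
Col11a1, chr2:204508886-204509135 (+): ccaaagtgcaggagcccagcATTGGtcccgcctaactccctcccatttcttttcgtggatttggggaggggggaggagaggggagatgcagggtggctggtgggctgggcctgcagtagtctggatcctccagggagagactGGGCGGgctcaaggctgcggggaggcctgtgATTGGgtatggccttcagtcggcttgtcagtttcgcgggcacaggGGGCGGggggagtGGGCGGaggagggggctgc
Col11a2, chr20:4817649-4817898 (-): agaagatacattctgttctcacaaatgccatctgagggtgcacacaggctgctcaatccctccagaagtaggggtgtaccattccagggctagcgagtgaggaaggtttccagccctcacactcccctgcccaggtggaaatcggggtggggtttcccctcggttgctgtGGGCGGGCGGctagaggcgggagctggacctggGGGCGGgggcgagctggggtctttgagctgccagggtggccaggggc
Col9a1, chr9:34081114-34081363 (+): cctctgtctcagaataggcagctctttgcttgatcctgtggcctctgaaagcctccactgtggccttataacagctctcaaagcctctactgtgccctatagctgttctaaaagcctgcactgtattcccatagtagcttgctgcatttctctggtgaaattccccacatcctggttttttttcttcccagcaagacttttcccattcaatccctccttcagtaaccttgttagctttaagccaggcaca
Col9a2, chr5:139892548-139892797 (+): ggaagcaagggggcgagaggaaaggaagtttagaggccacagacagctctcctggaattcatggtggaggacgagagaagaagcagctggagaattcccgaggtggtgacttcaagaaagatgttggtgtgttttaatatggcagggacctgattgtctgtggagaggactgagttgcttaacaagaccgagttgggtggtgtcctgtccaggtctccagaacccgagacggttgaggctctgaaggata

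The type XI promoters were rich in G and C, at 65.6% for Col11a1 and 62.8% for Col11a2, above 85.5% and 80.6% of the 33469 rat promoters in the table. Col9a1 had 46.8% and Col9a2 52.0%, beside a median of 51.2% over all promoters. The Col11a1 promoter held 3 GC boxes and 2 CCAAT boxes, the latter read on the minus strand as ATTGG. The Col11a2 promoter held 3 GC boxes, 2 of which overlap, and 0 CCAAT boxes. Neither type IX promoter held either motif. A GC box stood in 30.5% and a CCAAT box in 34.0% of all promoters of this length. A TATA box (TATAAA, 12.9% of promoters) and the SOX core motifs ACAAAG (16.3%) and ACAATG (11.1%) were in none of the 4 windows. A match of letters is a description of the window and was not tested for binding.

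Aligned sequence came to 4.77 to 5.04 gigabases a library at the youngest age, to 4.35 to 4.74 at the middle age and to 3.53 to 4.90 at the oldest. The 20-month libraries stood apart, with a commonest read length, inferred from coverage, of 141 bases against 132. They also had 80.1% to 80.9% of bases on listed transcripts against 85.6% to 86.1%. This difference between sets of libraries and age cannot be told apart. Tbxt, the notochord transcription factor brachyury that marks nucleus pulposus cells, lay at 2369 ± 15.3, 2468 ± 15.7 and 2184 ± 85.8 FPKM at 2, 10 and 20 months (SD, n = 3). The summed level of 14 nucleus pulposus markers was 30910 to 32250 FPKM at 2 months, 26710 to 27030 at 10 and 26610 to 27950 at 20. In the 20-month library of replicate 3, 7 skeletal muscle markers summed to 216.5 FPKM, against 4.12 and 4.16 in the other 20-month libraries and at most 25.7 elsewhere.

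Col2a1 had 301, 299 and 311 FPKM in the 2-month libraries, 112, 112 and 116 in the 10-month libraries, and 152, 111 and 132 in the 20-month libraries. All 2-month libraries lay above all older ones, while the 10- and 20-month libraries overlapped and the 20-month values were spread more widely. The mean fell from 304 ± 6.41 to 113 ± 2.61 FPKM at 10 months (SD, n = 3), 37.2% of the 2-month level. The log2 change was −1.42 ± 0.09 (SE; limma on log2(FPKM + 1), Benjamini-Hochberg adjusted p = 2.52e-05). At 20 months it was 131.5 ± 20.4 FPKM, 43.3% of the 2-month level (log2 −1.21 ± 0.09, limma adjusted p = 4.38e-06). The step from 10 to 20 months was 0.20 ± 0.09 and did not pass (limma adjusted p = 0.0778). That step depended on the scaling: after median-of-ratios scaling between libraries it was 0.47 with limma adjusted p = 0.00165, and without 20-month replicate 2 it was 0.32 (limma adjusted p = 0.00152). In bulk RNA, fewer cells of a type and less RNA per cell cannot be told apart. Col2a1 ranked 208th to 223rd among all genes at 2 months, 542nd to 561st at 10 and 396th to 528th at 20, and its signal rested on the equivalent of 15638 to 52284 reads a library.

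Col11a1, whose chain is the larger partner of the type XI molecule in cartilage, had 23.2, 23.0 and 23.0 FPKM at 2 months, 16.4, 17.2 and 16.7 at 10 months, and 11.3, 11.2 and 11.5 at 20 months. The 3 ages formed tiers with no overlap. The fall to 10 months was −0.44 ± 0.04 (limma adjusted p = 5.14e-05), which left 72.4% of the 2-month level. The fall from 10 to 20 months was −0.52 ± 0.04 (limma adjusted p = 4.86e-06), to 49.1% of the 2-month level. After median-of-ratios scaling that second step was −0.27 (limma adjusted p = 2.81e-04).

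Col11a2, which encodes the other chain specific to type XI, had 2.65, 2.96 and 2.75 FPKM at 2 months, 2.33, 1.91 and 2.17 at 10 months, and 2.31, 1.81 and 1.98 at 20 months. The 2-month libraries lay above all older ones, and the 10- and 20-month libraries overlapped. Its change to 10 months was −0.27 ± 0.09 (limma adjusted p = 0.0404) and to 20 months −0.32 ± 0.09 (limma adjusted p = 0.00847). Neither call held throughout: the first was lost without any 1 of the 2- or 10-month libraries (limma adjusted p up to 0.134), and the second after median-of-ratios scaling (−0.16, limma adjusted p = 0.116). Between 10 and 20 months the difference was −0.05 (limma adjusted p = 0.639), and 0.13 after that scaling. Nearly all of the Col11a2 signal came from the long transcript of 6046 bases. A transcript of 2049 bases with 21 exons, at chr20:3830199-3843445, carried 1.83% to 8.71% of the summed FPKM, on 3 to 19 read equivalents a library, too few to test for a change in its share.

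Among the type IX genes, Col9a3 had 3.23, 3.73 and 3.78 FPKM at 2 months, 2.27, 2.39 and 2.17 at 10 months, and 4.53, 2.46 and 2.88 at 20 months. All 10-month libraries were below all others, and the 20-month library of replicate 1 was the highest of the 9. The change to 10 months was −0.48 ± 0.15 (limma adjusted p = 0.0413), a call lost without any 1 of the 2- or 10-month libraries (limma adjusted p up to 0.113). Between 10 and 20 months the difference was 0.36 ± 0.15 (limma adjusted p = 0.0636), and 0.56 once scaled by median of ratios (limma adjusted p = 0.0125). The 20-month mean of 3.29 ± 1.09 FPKM was not separated from the 2-month mean of 3.58 ± 0.307 (−0.12 ± 0.15, limma adjusted p = 0.497). Its direction turned with the scaling, to 0.05, and it was −0.32 without 20-month replicate 1 (limma adjusted p = 0.0111).

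Col9a1, which encodes the type IX chain with the large globular end domain, had 0.507, 0.462 and 0.301 FPKM at 2 months, on 74, 64 and 41 read equivalents. At 10 months it had 0.0807, 0.0587 and 0.0723 FPKM, on 10, 8 and 9 read equivalents. At 20 months it had 0.0898 and 0.0169 FPKM, on 9 and 2 read equivalents, and was listed at 0 in replicate 3. All 2-month libraries were above all older ones. The gene was under the filter of 1 FPKM in at least 3 libraries and so was not tested in the main fit. With no filter, its log2 change was −0.41 ± 0.06 at 10 months (limma adjusted p = 0.00246) and −0.46 ± 0.06 at 20 months (limma adjusted p = 3.07e-04), on a scale where the added 1 shrinks changes of so low a gene.

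Col9a2, the remaining type IX gene, had 0.0941, 0.131 and 0.0904 FPKM at 2 months and 0.110, 0.127 and 0.0717 at 10 months. At 20 months it had 0.104 and 0.102 FPKM in replicates 1 and 3 and was listed at 0 in replicate 2. The ages overlapped, and each nonzero value rested on only 7 to 14 read equivalents, so no age difference was detectable at this depth (limma with no filter, adjusted p from 0.392 to 1.0). Col9a3 was thus above both partner genes of its trimer in all 9 libraries.

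Of the 6 genes, 4 passed the filter, and all 4 of these were called lower at 10 than at 2 months, where 11.4% of the 11708 tested genes were called lower and 19.0% higher. No library of 10 months overlapped the 2-month range in any of the 4, which held, with 10 months lower, for 21.5% of tested genes. Leaving out any 1 library of those ages left 2 calls, Col2a1 and Col11a1. At 20 against 2 months 3 were called lower (Col2a1, Col11a1 and Col11a2), where 49.6% of all tested genes were called lower and 18.6% higher. The same 3 did not overlap between those ages, as was so, with 20 months lower, for 51.0% of tested genes, so these shares are not far from the background. In the last step, from 10 to 20 months, 1 was called lower, Col11a1, where 53.3% of tested genes were called lower and 11.4% higher. After median-of-ratios scaling Col2a1 and Col9a3 were called higher in that comparison and Col11a1 lower, where 26.7% of tested genes were called higher and 25.8% lower. After the same scaling the calls at 10 against 2 months were still 4 of 4 lower, where 14.5% of tested genes were called lower and 15.1% higher. The calls at 20 against 2 months were then 2 lower, Col2a1 and Col11a1, where 31.3% were called lower and 31.0% higher. The median log2 change of the 4 was −0.46, −0.64 and 0.08 in the 3 comparisons, beside 0.04, −0.20 and −0.23 over all tested genes. After the scaling, which centres all genes near 0, the median of the 4 was −0.49, −0.46 and 0.30. The comparisons share libraries and are not independent. The F test over the 3 ages called all 4 genes, where 75.4% of tested genes were called.

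**Figure D2:**
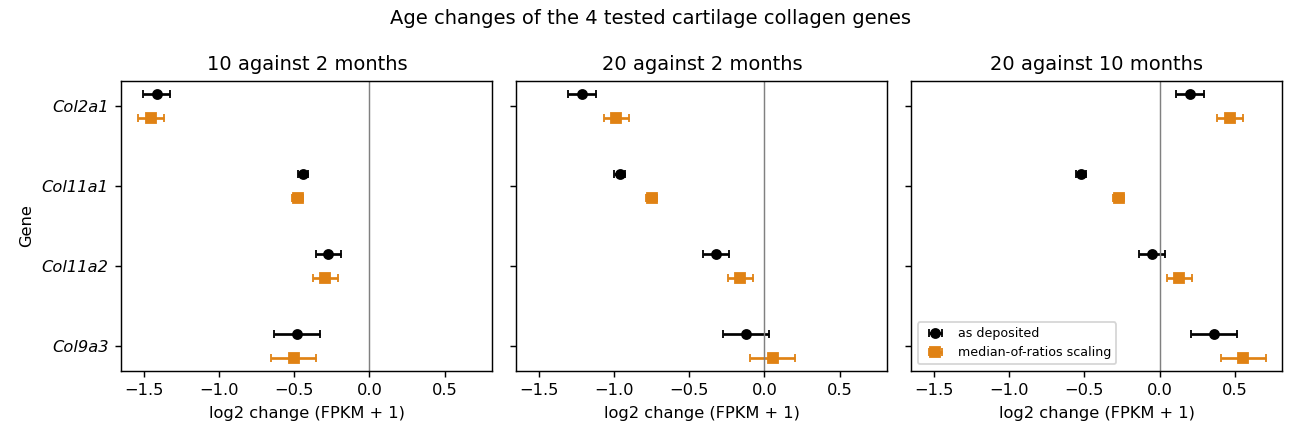
Log2 change in FPKM + 1 (x axis) of the 4 tested genes (y axis) in each of the 3 age comparisons, as deposited (black circles) and after median-of-ratios scaling (orange squares); bars are SE from limma. At 10 against 2 months both versions lie left of 0, from −1.42 for Col2a1 to −0.27 for Col11a2 as deposited; at 20 against 10 months the scaling moves all points to the right, and Col11a1 alone stays left of 0.

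A ratio of 2 genes within 1 library does not depend on the scaling between libraries. Of 9 planned ratios 4 could be formed, since the others involve a gene listed at 0 in a library. At 2 months there were 13.0, 13.0 and 13.5 units of Col2a1 FPKM per unit of Col11a1, at 10 months 6.82, 6.51 and 6.98, and at 20 months 13.4, 9.85 and 11.5. The 10-month libraries stood below all others, and the 2- and 20-month libraries overlapped (exact permutation F test over the 3 ages, p = 0.0107, adjusted over the 4 ratios 0.0143). Per unit of Col11a2, Col2a1 stood at 114, 101 and 113 at 2 months, 47.8, 58.5 and 53.6 at 10 months, and 65.6, 61.1 and 66.8 at 20 months. Here too 10 months was lowest, and the 3 ages did not overlap (exact permutation p = 0.00357, the smallest these 1680 assignments allow, adjusted 0.00714).

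Per unit of Col9a3, Col2a1 stood at 93.4, 80.2 and 82.3 at 2 months, 49.1, 46.7 and 53.6 at 10 months, and 33.4, 45.0 and 45.9 at 20 months. This ratio was lower at each later age, with no overlap (exact permutation p = 0.00357, adjusted 0.00714). Between the type XI partners, Col11a1 per unit of Col11a2 was 8.76, 7.78 and 8.37 at 2 months, 7.0, 8.99 and 7.69 at 10 months, and 4.91, 6.20 and 5.78 at 20 months. The 20-month libraries were below all others, and the 2- and 10-month libraries overlapped (exact permutation p = 0.0214, adjusted 0.0214, and p = 0.0571 without 20-month replicate 1).

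**Figure D3:**
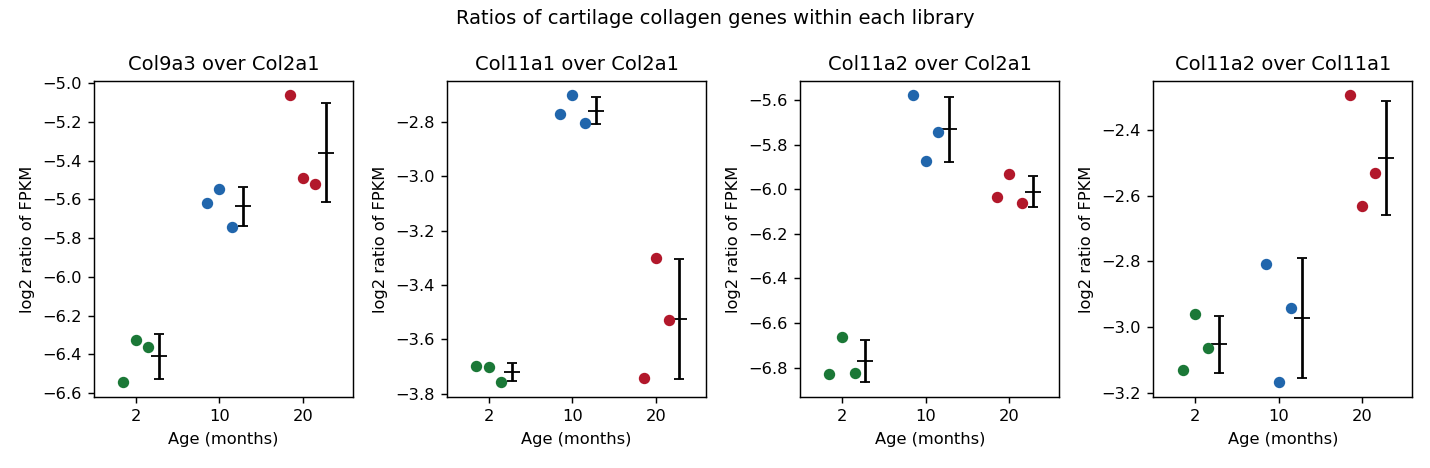
Log2 ratio of FPKM between 2 genes within a library (y axis, not from 0 and different per panel) by age in months (x axis); each point is 1 library and black bars are mean ± SD (n = 3). Col11a1 over Col2a1 is highest at 10 months, at a mean of −2.76 against −3.72 at 2 and −3.52 at 20 months, whereas Col9a3 over Col2a1 is higher at each later age.

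Together the 6 genes summed to 334 ± 6.34 FPKM at 2 months, 134 ± 2.50 at 10 and 148 ± 21.8 at 20 (SD, n = 3). Col2a1 made up 91.0%, 84.2% and 88.6% of that sum, and Col11a1 6.91%, 12.4% and 7.76%. The 6 were 23.2% ± 0.248 of the summed FPKM of all 36 collagen genes in the table at 2 months, 14.2% ± 0.246 at 10 and 15.3% ± 2.12 at 20. Col2a1 was the third most abundant of the 36 in every library, after the type VI genes Col6a1 and Col6a2. Col11a1 was the fifth in all 2- and 10-month libraries and lower in the order at 20 months. The symbols Col6a3 and Col1a2 are not among the 36, so these shares and ranks hold for the listed collagen genes only.

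**Figure D4:**
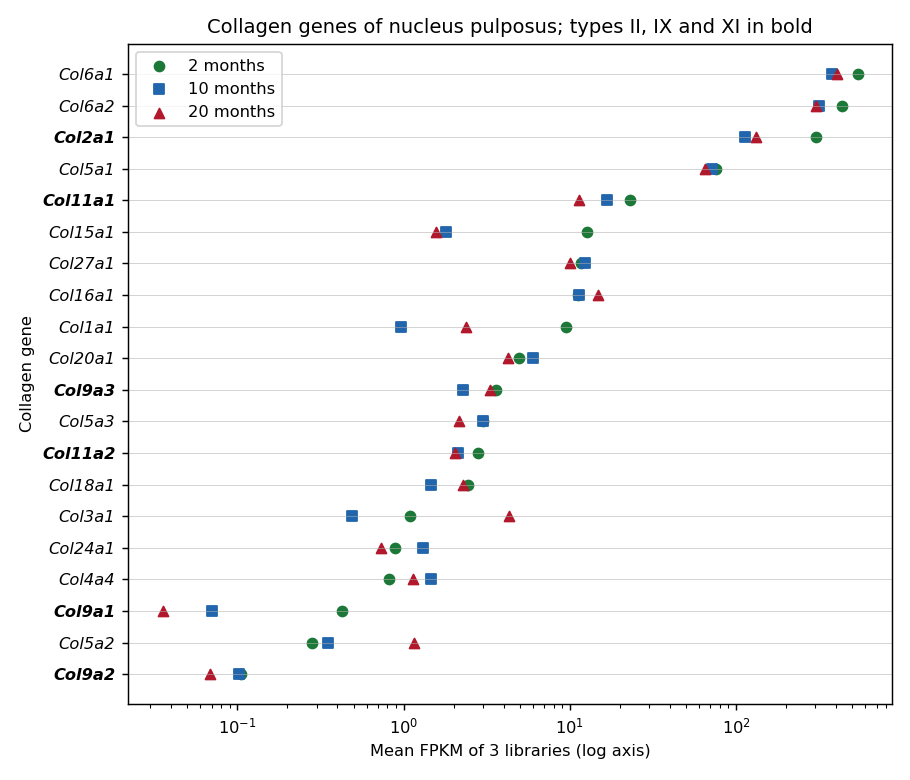
Mean FPKM of 3 libraries per age (x axis, log scale) for the collagen genes with a mean of at least 1 FPKM at some age, and for Col9a1 and Col9a2, whose 20-month means include a library listed at 0; genes of types II, IX and XI are in bold. Among the genes shown, Col2a1 is below only Col6a1 and Col6a2, and Col9a1 and Col9a2 lie at the low end.

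Of the other fibrillar and cartilage-associated collagens, 7 were tested. At 10 against 2 months 0 rose by limma (1 at an unadjusted p under 0.05) and 1 fell, Col1a1, the type I collagen gene of bone and fibrous tissue. Over all tested genes 19.0% were higher and 11.4% lower there. At an unadjusted p under 0.05, 3051 of the 11708 tested genes were higher and 1849 lower. Col1a1 had 9.35, 9.43 and 9.62 FPKM at 2 months, 1.01, 0.9999 and 0.891 at 10 months, and 0.895, 1.18 and 5.09 at 20 months. Its fall was larger than that of Col2a1 on the log2 scale (−2.41 ± 0.36, limma adjusted p = 0.00133), and the 20-month replicate 3 stood above the other older libraries. At 20 against 2 months 1 rose, Col16a1, and 3 fell, Col1a1, Col5a1 and Col5a3, beside 18.6% of all tested genes higher and 49.6% lower. Col5a1, whose chain resembles that of Col11a1 and can take its place, went from 76.3 ± 0.683 to 65.3 ± 5.14 FPKM (−0.22, limma adjusted p = 0.00386, and 0.00 after scaling). Between 10 and 20 months Col16a1 and Col3a1 rose and Col5a1, Col5a3, Col24a1 and Col27a1 fell. After scaling 2 rose and 0 fell by limma (3 and 1 at an unadjusted p under 0.05). Over the 11708 tested genes, 3439 were higher and 3372 lower at that unadjusted threshold after scaling. In that step 11.4% of all tested genes were higher and 53.3% lower, or 26.7% and 25.8% after scaling. As deposited, the shares of this list that fell at 20 months are not far from the background. The median of the 7 was 0.00, −0.22 and −0.13 in the 3 comparisons.

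Cartilage matrix partners, the proteins that bind these fibrils or fill the space between them, had 12 tested genes. At 10 against 2 months 1 rose (Dcn) and 5 fell (Fmod, Prelp, Bgn, Acan and Matn2), and the median was −0.03. Over all tested genes 19.0% were higher and 11.4% lower there. Fmod, for fibromodulin, which binds collagen fibrils, fell by 0.62 on the log2 scale at 10 months (limma adjusted p = 1.52e-04) and by 1.0 at 20 months (limma adjusted p = 1.25e-06). Acan, for aggrecan, was 1202 ± 15.3, 871 ± 12.01 and 1148 ± 95.4 FPKM. Like Col2a1 it fell to 10 months (−0.47, limma adjusted p = 3.64e-04), and it then rose between 10 and 20 months (0.40, limma adjusted p = 2.2e-04). Bgn, for biglycan, was 40.6 ± 0.225, 18.8 ± 0.516 and 23.0 ± 4.84 FPKM, lower at 10 months by 1.07 on the log2 scale (limma adjusted p = 2.36e-04). Hapln1, for the link protein that holds aggrecan to hyaluronan, was 56.8 ± 0.888, 62.3 ± 2.84 and 44.3 ± 1.98 FPKM, lower at 20 than at 2 months (−0.35, limma adjusted p = 1.03e-04). At 20 against 2 months 3 rose and 5 fell (Fmod, Prelp, Hapln1, Bgn and Ucma), or 5 and 5 after scaling. The shares of all tested genes there were 18.6% higher and 49.6% lower, or 31.0% and 31.3% after scaling. Between 10 and 20 months Acan, Matn2, Comp and Dcn rose and Fmod, Prelp, Hapln1 and Mia fell, or 5 and 2 after scaling. In that step 11.4% of all tested genes were higher and 53.3% lower, or 26.7% and 25.8% after scaling. The partner genes that rose at 20 against 2 months were Dcn, Comp and Thbs1, and replicate 3 was the highest 20-month library for each. It had 20.3 FPKM of Comp against 2.29 and 4.51, 66.4 of Dcn against 13.8 and 19.7, and 4.25 of Thbs1 against 1.60 and 0.902. Without that library Comp was 1.45 above its 2-month level on the log2 scale in place of 2.23 (limma adjusted p = 2.5e-04). Dcn was then 2.545 above in place of 3.194, and Thbs1 0.80 in place of 1.215.

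Regulators known to act on cartilage collagen genes had 15 tested members, all transcription factors except Wwp2, which encodes a ubiquitin ligase that binds Sox9. By limma 0 rose and 5 fell at 10 against 2 months (2 and 9 at an unadjusted p under 0.05, and 0 and 7 after scaling), with a median of −0.11. Those that fell were Epas1, Nfatc1, Hif1a, Trps1 and Wwp2. The shares of all tested genes at that step were 19.0% higher and 11.4% lower, or 15.1% and 14.5% after scaling. At an unadjusted p under 0.05, as deposited, 3051 of the 11708 tested genes were higher and 1849 lower. By 20 months, against 2, 1 rose (Wwp2) and 10 fell (3 and 7 after scaling), with a median of −0.38, beside 49.6% of all tested genes lower with a median of −0.20, or 31.3% lower after scaling. The shares higher in that comparison were 18.6% and, after scaling, 31.0%. From 10 to 20 months 1 rose and 12 fell, or 3 and 5 after scaling, with a median of −0.31. Of all tested genes 53.3% were lower there with a median of −0.23, or 25.8% lower after scaling, so the scaled share of this list is not far from the background. The shares higher in that step were 11.4% and, after scaling, 26.7%. The smallest F-test p-values were those of Epas1, Creb3l2 and Nfatc1. Epas1, for the hypoxia factor HIF-2α, fell from 73.5 ± 0.804 to 41.2 ± 2.94 FPKM at 20 months (−0.82, limma adjusted p = 9.71e-07). Creb3l2, whose protein drives secretory genes in chondrocytes, fell from 146 ± 0.556 to 92.5 ± 5.92 FPKM (−0.66, limma adjusted p = 2.03e-06).

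Sox9, Sox5 and Sox6 encode the factors that together switch on Col2a1, Col9 and Col11 genes in cartilage. Sox9 had 51.4 ± 1.71, 41.2 ± 2.08 and 38.2 ± 7.18 FPKM (SD, n = 3). Its difference at 10 months, the step at which Col2a1 fell most, did not pass (−0.31, limma adjusted p = 0.0736, and 0.0625 after scaling). Its 10-month libraries, at 39.0 to 43.1 FPKM, all lay below its 2-month libraries, at 49.9 to 53.3, as held for 21.5% of tested genes. At 20 against 2 months Sox9 fell by 0.44 on the log2 scale (limma adjusted p = 0.00878), but not after scaling (−0.21, limma adjusted p = 0.163). Sox5 was 12.3 ± 0.398, 11.3 ± 0.173 and 8.83 ± 0.293 FPKM and Sox6 12.8 ± 0.948, 11.2 ± 0.378 and 7.75 ± 0.442. Both were lower at 20 than at 2 months (−0.44 and −0.66, limma adjusted p = 2.37e-05 and 1.73e-05), and under scaling too (−0.23 and −0.45). At 10 against 2 months neither Sox5 nor Sox6 passed as deposited (−0.12 and −0.18, limma adjusted p = 0.0705 and 0.0587). After scaling both were called lower there (−0.15 and −0.21, limma adjusted p = 0.0281 and 0.0369).

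Procollagen chains are hydroxylated, glycosylated and folded in the endoplasmic reticulum, exported in large carriers, trimmed outside the cell and cross-linked. Of 29 tested genes of these steps 5 rose and 13 fell at 10 against 2 months (4 and 14 after scaling), with a median of −0.09. Those that rose were P3h3, Preb, Kif5b, Bmp1 and Loxl1. At that step 19.0% of all tested genes were higher and 11.4% lower, or 15.1% and 14.5% after scaling. By 20 months, against 2, 4 rose and 21 fell (7 and 17 after scaling), with a median of −0.39. Over all tested genes 18.6% were higher and 49.6% lower there with a median of −0.20, or 31.0% and 31.3% after scaling. In the later step, 10 to 20 months, 3 rose (P3h3, P4ha2 and Ppib) and 23 fell, with a median of −0.31, beside 53.3% of all tested genes lower. After scaling these were 3 and 8, beside 26.7% higher and 25.8% lower. Colgalt2, which encodes a galactosyltransferase that adds sugar to hydroxylysine, had the largest fall at 20 months among the 29. Its level went from 26.3 ± 0.498 to 12.3 ± 0.434 and 6.64 ± 0.571 FPKM, a log2 change of −1.04 at 10 months (limma adjusted p = 1.37e-05) and −1.84 at 20 months (limma adjusted p = 4.94e-08). Plod1, for a lysyl hydroxylase, went from 67.7 ± 1.40 to 52.3 ± 1.12 and 34.0 ± 0.275 FPKM (−0.97 at 20 months, limma adjusted p = 5.15e-08). Fkbp10, for a procollagen chaperone, went from 49.6 ± 1.48 to 40.7 ± 1.10 and 27.8 ± 0.148 FPKM (−0.81, limma adjusted p = 2.13e-07).

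The 4 genes that rose at 20 against 2 months were P3h3, P4ha2, Loxl1 and Kif5b. P3h3, for a member of the prolyl 3-hydroxylase family, went from 24.8 ± 0.564 to 29.6 ± 0.806 and 40.4 ± 1.77 FPKM (0.68 at 20 months, limma adjusted p = 1.27e-06). P4ha2, for a catalytic subunit of prolyl 4-hydroxylase, went from 80.4 ± 2.79 to 112 ± 11.7 FPKM at 20 months (0.47, limma adjusted p = 1.75e-04).

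**Figure D5:**
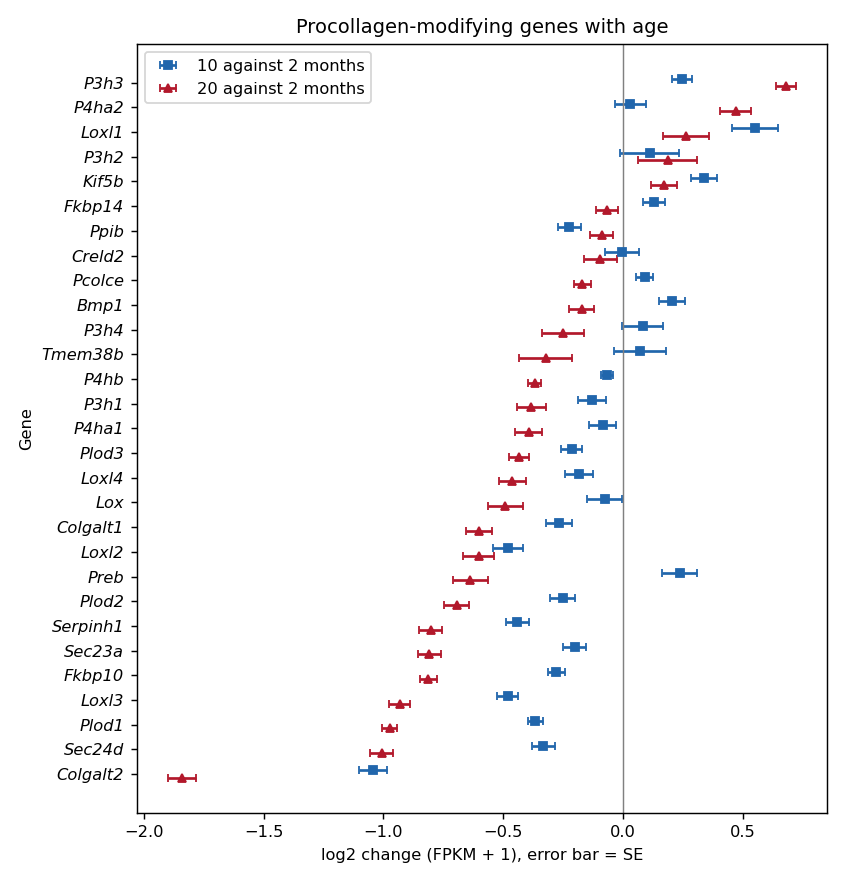
Log2 change in FPKM + 1 (x axis) of the 29 tested genes for procollagen hydroxylation, folding, export and processing (y axis, ordered by the change at 20 months), at 10 (blue squares) and 20 months (red triangles) against 2 months; bars are SE from limma. Colgalt2 lies farthest left at both ages, at −1.04 and −1.84, and P3h3 farthest right at 20 months, at 0.68.

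Cells sense collagen II through integrins and discoidin domain receptors. Of 6 tested receptor genes 0 rose and 2 fell at 10 against 2 months by limma (1 and 3 at an unadjusted p under 0.05, median −0.09). Over all tested genes 19.0% were higher and 11.4% lower there. At an unadjusted p under 0.05, 3051 of the 11708 tested genes were higher and 1849 lower. At 20 against 2 months Itga10 rose and Itgb1, Ddr1, Ddr2 and Mrc2 fell (median −0.49). Of all tested genes 18.6% were higher and 49.6% lower in that comparison. After scaling 2 receptor genes rose and 4 fell there, beside 31.0% of all tested genes higher and 31.3% lower. Itgb1, for the integrin β1 chain, went from 311 ± 2.39 to 254 ± 4.96 and 213 ± 8.94 FPKM (−0.29 and −0.54, limma adjusted p = 3.81e-04 and 1.59e-06). Ddr2, for a receptor that binds fibrillar collagen, was 45.4 ± 0.535, 45.8 ± 1.13 and 30.7 ± 1.46 FPKM, close at 2 and 10 months (0.01, limma adjusted p = 0.81) and lower at 20 (−0.55 against 2 months, limma adjusted p = 3.73e-06). Ddr1, for the other discoidin domain receptor, was 31.4 ± 0.755, 27.4 ± 1.02 and 17.5 ± 1.78 FPKM (−0.81 at 20 against 2 months, limma adjusted p = 7.33e-06). From 10 to 20 months 0 receptor genes rose and 3 fell by limma (0 and 4 at an unadjusted p under 0.05, median −0.23). Of all tested genes 11.4% were higher and 53.3% lower in that step, or 1452 and 6526 of 11708 at the unadjusted threshold. After scaling 1 receptor gene rose and 2 fell, beside 26.7% of all tested genes higher and 25.8% lower.

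Of 7 tested genes for enzymes that cleave these collagens and for their inhibitors, 0 rose and 2 fell at 10 against 2 months (Mmp14 and Timp3, median −0.06). The shares of all tested genes there were 19.0% higher and 11.4% lower. At 20 against 2 months 0 rose and 6 fell (median −0.53), beside 49.6% of all tested genes lower, or 0 and 5 after scaling, beside 31.3%. Between 10 and 20 months 0 rose and 6 fell (median −0.41), beside 53.3% of all tested genes lower, or 1 and 3 after scaling, beside 25.8%. The counts of 0 are by limma and were 0 at an unadjusted p under 0.05 too. Mmp14, for a membrane-bound collagenase, went from 28.6 ± 0.740 to 22.8 ± 0.633 and 18.6 ± 1.12 FPKM (−0.32 and −0.60, limma adjusted p = 0.00139 and 6.41e-06). Timp3, for a matrix-bound inhibitor, also fell at both ages (−0.11 and −0.71, limma adjusted p = 0.0487 and 6.27e-07). Ctsb, for the lysosomal protease cathepsin B, was close at 2 and 10 months (−0.03, limma adjusted p = 0.549) and lower at 20 (−0.64 against 2 months, limma adjusted p = 1.04e-06). The collagenase gene Mmp13 did not pass the filter: it had 0.136 and 1.39 FPKM in the first 20-month libraries, 6.20 in replicate 3, and at most 0.154 in the others.

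The genes whose profile over the 9 libraries was most like that of each collagen gene were ranked by the root mean square difference of centred log2(FPKM + 1) values among 4973 genes. For Col2a1 these were Meltf (0.190), Bgn (0.226) and Chst3 (0.260), beside a spread of Col2a1 itself of 0.635. For Col11a1 they were Myh10 (0.0374), Plod1 (0.0450) and Card19 (0.0533), beside a spread of 0.395. For Col11a2 they were Sdcbp (0.0607), Naxd (0.0616) and Creld1 (0.0626), beside 0.162. For Col9a3 they were Nr1d1 (0.121), Hist1h2bq (0.133) and Mcub (0.140), beside 0.269. Col2a1, Col11a2 and Col9a3 thus had no neighbour as close as Col11a1 had, and the same held for Col9a1. For Col9a1 they were Ralb (0.0659), Dynlt1 (0.0661) and Ano10 (0.0667), beside 0.214. The ranked genes had a mean of at least 10 FPKM, whereas the added 1 shrinks the changes of a gene as low as Col9a1. Its means went from 0.423 to 0.0706 and 0.0356 FPKM, those of Ralb only from 61.4 to 48.0 and 42.3. These matches therefore hold on this scale only, and the added 1 also shrinks the profiles of Col11a2 and Col9a3, though less. The profile of Col9a2 was nearly flat on this scale, with a spread of 0.04995, and its nearest genes were Il6st, Atl2 and Ccz1b.

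Growth plate and endplate cartilage lies next to the nucleus pulposus and makes the same collagens. Its 6 marker genes summed to 158.2 to 160.8 FPKM at 2 months, 121.7 to 128.0 at 10 and 77.6 to 93.1 at 20, so this sum was lower at each later age. Only 2 of the 6 reached 1 FPKM in a library. Ucma, 1 of these 2, had means of only 11.9, 8.96 and 6.61 FPKM. Most of the sum and of its fall therefore came from the other of these 2, not from Ucma. Col10a1, the defining gene of hypertrophic chondrocytes, was at 0.289, 0.156 and 0.234 FPKM at 2 months, at most 0.123 at 10 months, and listed at 0 in all 20-month libraries. Matn3, another marker of this list, went the other way at 10 months. It was at 0.128 to 0.226 FPKM at 2 months, 0.303 to 0.491 at 10 and 0.165 to 0.435 at 20. The 8 osteoblast and osteoclast markers also stood lower with age, with sums of 16.4 to 17.2, then 10.1 to 11.4, then 5.24 to 7.04 FPKM, with 2 of the 8 reaching 1 FPKM. The 6 annulus and tendon markers summed to 5.55 to 6.58, 6.29 to 7.16 and 7.46 to 12.97 FPKM, with 4 of the 6 reaching 1 FPKM. The 5 red blood cell markers summed to 82.9 to 93.2, 9.57 to 10.6 and 36.6 to 42.5 FPKM, lowest at 10 months, with 4 of the 5 reaching 1 FPKM. The 6 endothelial and pericyte markers summed to 25.1 to 25.9, 17.1 to 17.9 and 14.8 to 16.0 FPKM, with 2 of the 6 reaching 1 FPKM and the endothelial genes Cdh5 and Kdr at or near 0. Macrophage and leukocyte markers summed to 15.6 to 22.1 FPKM over the 9 libraries, and adipocyte markers to at most 1.28. The part of these cells in the changes of the collagen genes was not tested. Leaving out 20-month replicate 3, the library high in muscle markers, left the calls of the 4 tested collagen genes at 4, 3 and 1 in the 3 comparisons.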

How the data were processed

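RNA of 9 input libraries was analysed. Per the submitters' processing notes, the tools were StringTie 1.3.4d, HISAT2 2.0.4 and cutadapt 1.9, with edgeR and DESeq2, none with a stated role; no source used here gives the genome build. The authors deposited FPKM per gene and per transcript, and per the file headers coverage per transcript, which were used as given. Coverage divided by FPKM gave the aligned gigabases per library, and coverage times transcript length over read length the read equivalents. Such equivalents are not independent molecules, and counting error was not propagated.

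The main fit used limma 3.58.1 (R 4.3.3) with a variance trend on log2(FPKM + 1), over 11708 genes of at least 1 FPKM in at least 3 of 9 libraries, with Benjamini-Hochberg adjustment over all of them and calls at 0.05. A fold change on this scale understates changes of low genes. Ratios were tested with an exact permutation F test, two-sided by construction. The fit was tested on simulated data. Other settings run were pseudocounts, filters, scalings, weights, a replicate block and left-out libraries. List counts after median-of-ratios scaling or without 20-month replicate 3 were added after seeing the data.

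The genes and lists were chosen with earlier results of these data known. All 6 genes are named, and per list the 3 genes with the smallest F-test p-values plus any needed to spell out a count of at most 5; Acan, Bgn, Sox9, Sox5, Sox6, Comp, P4ha2 and Mmp13 were named for their roles after their values were seen. Promoter sequences are from RefSeq (GRCr8). Libraries from antibody pull-down were not analysed here.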

Additional observations from a re-analysis of the deposited data

How the results depend on the processing

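The direction and call of Col2a1 and Col11a1 at 10 and 20 against 2 months were the same under every alternative run. Of the 4 genes called at 10 against 2 months, 2 were called with a filter of 5 FPKM, which leaves only 2 of them to test, 2 with the replicate block, and 2 to 4 when 1 library was left out. Of the 4 called over the 3 ages, 2 were called with that filter and 2 to 4 with 1 library left out. At 20 against 2 months the count of 3 was 2 after median-of-ratios scaling, quantile normalization or the 5 FPKM filter, 4 with no filter, and 3 to 4 with 1 library left out. The 1 call at 20 against 10 months became 3 after median-of-ratios scaling, quantile normalization, or rescaling with ribosomal protein and mitochondrial genes set aside, and ran from 1 to 3 with 1 library left out (3 without 20-month replicate 2). Col9a3 at 20 against 2 months turned to 0.0536 after median-of-ratios scaling and 0.0415 after quantile normalization, and ran from −0.32 to 0.0184 with 1 library left out. Col11a2 at 20 against 10 months turned to 0.13 and 0.17 under those scalings and ran from −0.11 to 0.00432 with 1 library left out.

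The 4 ratios called became 7 of 9 with a pseudocount of 1, which lets all 9 be formed, and 3 to 4 with 1 library left out. With the replicate block, in which ages are permuted only within a number, 0 passed the adjusted exact permutation test and 2 had an unadjusted p under 0.05. Those 2, Col9a3 over Col2a1 and Col11a2 over Col2a1, had an exact permutation p of 0.0278, the smallest that block allows (adjusted 0.0556). The labels do not say whether the replicate numbers pair the libraries. Deviations of same-numbered libraries correlated at −0.04 to 0.0491, which alone does not settle it. With the block, the adjusted limma p at 10 against 2 months was 0.0661 for Col9a3 and 0.0613 for Col11a2, and with no filter 0.0814 and 0.0697. Total calls at 20 against 10 months after median-of-ratios scaling were 2 for the other fibrillar collagens (6 as deposited), 8 for the transcription factors (13) and 11 for the procollagen genes (26). For the other fibrillar collagens they were 2 in place of 4 at 20 against 2 months after that scaling, and 2 in place of 1 at 10 against 2 months without 20-month replicate 3. Apart from what the filters and left-out libraries remove by construction, the cause was not tested. The alternatives for isoform use were not run, since no transcript of the 6 genes passed its filter. Depth limits Col9a1 and Col9a2 and the short Col11a2 transcript.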

Other observations

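The genes below were chosen after their values were seen. In 20-month replicate 3, Lum, for the small proteoglycan lumican, had 6.71 FPKM against 0.334 and 1.03 in the other 20-month libraries. The same library had 9.81 FPKM of Col3a1, against 0.851 and 2.22, and 10.4 FPKM of the stromelysin gene Mmp3, against 0.229 and 3.78. Acta1, for skeletal muscle actin, had 92.5 FPKM there, against 1.73 and 0.760. Col2a1, at 132 FPKM, and Col11a1, at 11.5 FPKM, lay in that library within or next to the range of the other 20-month libraries. The 6 annulus and tendon markers summed to 12.97 FPKM there, against 10.8 and 7.46 in the other 20-month libraries. Tbxt was at 2097 FPKM there, the lowest of the 9 libraries.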
